A study of Mus musculus with 28 samples.

Results

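The 8 genes described here belong to the TGF-beta pathway: the ligand Tgfb1, the receptors Tgfbr1 and Tgfbr2, the signal transducer Smad3, the inhibitors Smad7, Ski and Skil, and the target Tgfbi. They were chosen by name, out of 19938 genes with a probe set of 1 symbol, to follow a trace of the Th17 culture conditions in cells that had been transferred into mice. Each was measured by 1 probe set, as log2 values made by robust multi-array averaging (RMA), on 28 Affymetrix mouse arrays. All samples were TRP1-specific CD4+ T cells from BwTRP1 Rag1-/- donors, whose T cells carry 1 transgenic receptor for the melanocyte antigen TRP1. Cells were cultured for 7 days with peptide-pulsed, irradiated splenocytes from C57/B6 mice. The Th17 cultures received TGF-beta 2 at 5 ng/ml with IL-1, IL-6, IL-21 and antibodies to IL-2, IL-4 and IFN-gamma, and later IL-23. The Th1 cultures received IL-12 and an antibody to IL-4, and no TGF-beta is listed for them. Both later received IL-2. Cells were taken at day 0, or were transferred into B6.PL hosts irradiated with 5 Gy and recovered at day 5 or day 15. Donor cells (Thy1.2+) were recovered from spleens and inguinal lymph nodes by CD4 enrichment and a Thy1.2 sort, since the hosts (Thy1.1+) keep cells of their own after such a dose. Each sample was divided, and CD3 and CD28 were engaged by antibodies for 2 h on a part of it. Each type and condition had 1 array at day 0 and 3 arrays at day 5, and day 15 had 4 Th17 and 2 Th1 arrays in each condition.

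TGF-beta binds Tgfbr2, which then activates Tgfbr1, and this kinase phosphorylates Smad2 and Smad3, which enter the nucleus with Smad4. Smad7 blocks the activated receptor and is itself induced by the signal, while Ski and Skil (SnoN) are nuclear co-repressors that bind the Smads. In CD4+ T cells TGF-beta together with IL-6 promotes the Th17 fate, and TGF-beta restrains the Th1 fate.

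The upstream sequences of Tgfbi, Tgfbr2 and Smad3 are shown because these were the members that passed the test between Th17 and Th1 cells after transfer. Each is the run of 250 bases before the annotated start in RefSeq on GRCm38.p6, printed 5′ to 3′ on the gene's strand, and capitals mark CAGAC or its reverse complement GTCTG, the short Smad-binding element.
Tgfbi, chr13:56609336-56609585, plus strand: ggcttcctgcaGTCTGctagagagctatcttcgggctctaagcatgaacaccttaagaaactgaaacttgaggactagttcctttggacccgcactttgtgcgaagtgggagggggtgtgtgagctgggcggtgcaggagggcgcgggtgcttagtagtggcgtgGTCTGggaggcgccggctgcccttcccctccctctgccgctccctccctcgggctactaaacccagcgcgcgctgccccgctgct
Tgfbr2, chr9:116175364-116175613, minus strand: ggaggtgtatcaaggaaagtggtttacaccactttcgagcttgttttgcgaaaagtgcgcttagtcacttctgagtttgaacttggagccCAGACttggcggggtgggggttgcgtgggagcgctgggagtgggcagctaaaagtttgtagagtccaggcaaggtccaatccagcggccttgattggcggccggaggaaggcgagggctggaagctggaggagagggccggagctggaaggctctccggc
Smad3, chr9:63757995-63758244, minus strand: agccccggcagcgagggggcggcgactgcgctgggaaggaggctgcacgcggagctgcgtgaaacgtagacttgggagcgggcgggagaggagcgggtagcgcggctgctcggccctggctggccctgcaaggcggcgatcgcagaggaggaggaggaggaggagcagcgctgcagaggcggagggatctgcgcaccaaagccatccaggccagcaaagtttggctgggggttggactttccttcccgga
The Tgfbi window held 2 matches, beginning 239 and 85 bases before the start, the Tgfbr2 window held 1, beginning 160 bases before it, and the Smad3 window held 0. Such a match was found in 42.2% of 32851 RefSeq windows of the same length, so its presence or absence does not set these genes apart. The AP-1 motif TGACTCA, searched on both strands, was in 0 of the 3 windows and in 4.46% of all windows.

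The arrays were alike in scale, with medians from 6.77 to 7.09 log2 units. The mean of 10 markers of alpha-beta CD4+ T cells lay between 12.04 and 12.45 log2 units in every group, which fits the labelled cell type. Il17a, the defining cytokine of Th17 cells, had 10.27 ± 0.05 log2 units in restimulated Th17 cells at day 5, against 6.49 ± 0.04 in restimulated Th1 cells (SD, n = 3 each). At day 15 the restimulated Th17 arrays had 8.93, 6.85, 7.32 and 7.02 log2 units of Il17a, against 6.59 and 6.38 in Th1. All of these Th17 arrays but replicate 1 lay near the array medians. Transcripts of other cells were also present. The mean of 17 myeloid markers was 7.46 to 8.58 log2 units in unstimulated Th17 arrays at day 5, against 6.66 to 6.94 in Th1 arrays. The mean of 6 erythroid markers was 7.87 to 9.64 log2 units at day 15, against 6.29 to 6.68 at day 5. Separate mice are not stated for the replicates, and the p-values therefore cover the spread among these samples alone, which may be technical.

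At day 0, straight from culture, Tgfbi was the member that set the Th17 cells apart. Tgfbi encodes a secreted matrix protein that was named for its induction by TGF-beta. Its level was 10.97 log2 units in the unstimulated Th17 culture, against 6.82 in the Th1 culture, a 17.8-fold difference (log2 difference 4.15) that 0.0953% of all genes exceeded in size. After restimulation the Th17 culture had 9.28 log2 units and the Th1 culture 6.86, a 5.36-fold difference. With 1 array per group at day 0 there is no test and no replicate check for any of these values. The Th1 values, like all later Th1 values of Tgfbi (6.72 to 7.27), lay at about the array medians, and no call of detection was used here. The myeloid marker mean moved the same way, at 9.17 log2 units in the unstimulated Th17 culture and 7.19 in the Th1 culture, and its part in the difference was not tested.

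The other 7 members differed less at day 0. Of the 8 members, 1 was at least 2-fold higher in the unstimulated Th17 culture, where 2.73% of all genes were, and 0 were at least 2-fold lower, where 1.81% were. Among restimulated cultures these counts were again 1 and 0, against 3.32% and 1.13% of all genes. Tgfbr1 had 9.21 log2 units in the unstimulated Th17 culture and 10.01 in the Th1 culture, a log2 difference of -0.80. Smad3 had 10.53 log2 units in the unstimulated Th17 culture against 10.09 in Th1, and Smad7 had 9.99 against 9.65. All 24 later values of Smad3, in both types, lay at 10.86 log2 units or more, above all 4 day 0 arrays.

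**Figure D1:**
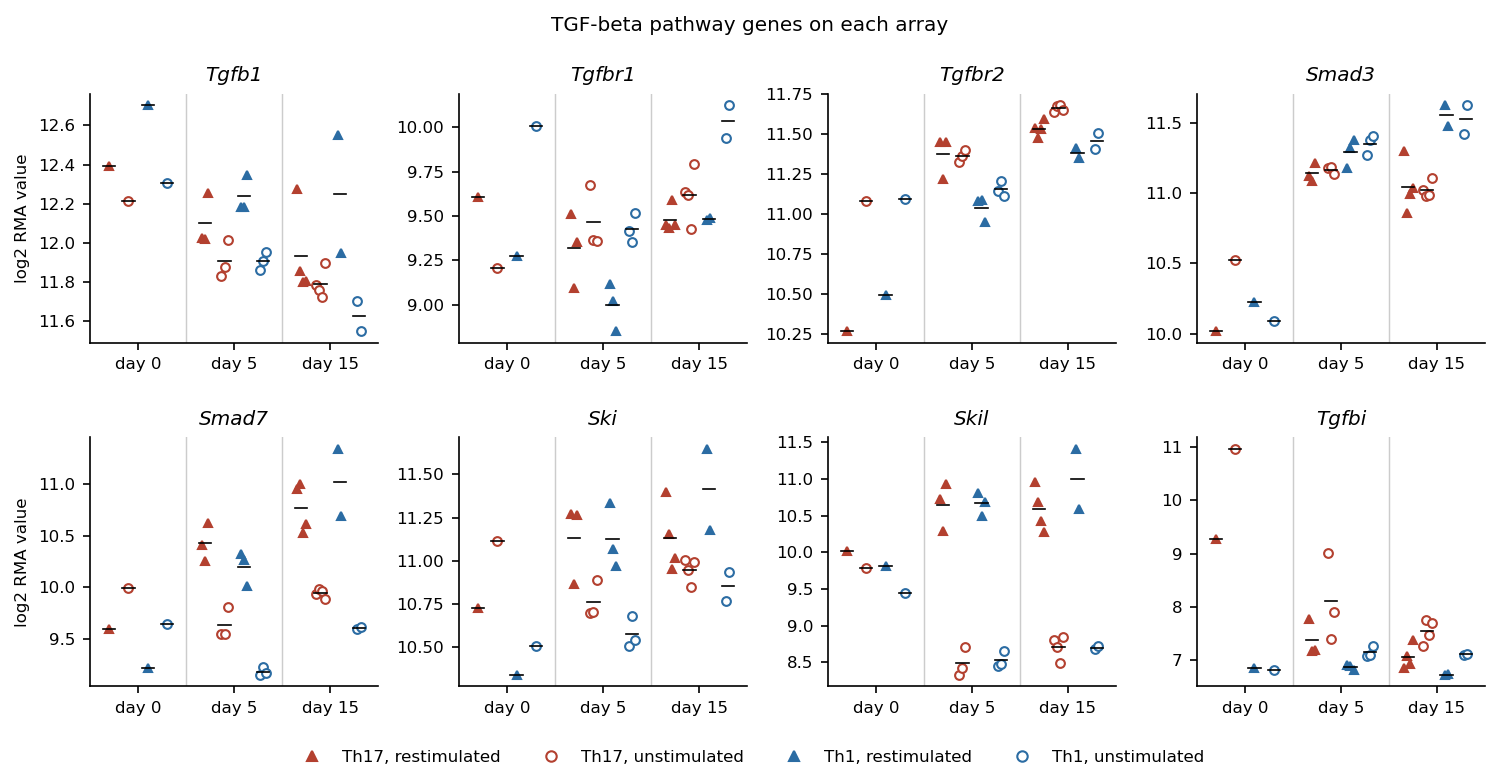
Level of each of the 8 members on every array, in log2 RMA units on the vertical axis, against day, with Th17 left of Th1 and restimulated (filled triangles) left of unstimulated (open circles) within a day. Black lines are group means; Tgfbi is highest in the Th17 cultures of day 0 at 10.97 and 9.28, and Skil and Smad7 are higher in restimulated than in unstimulated arrays after transfer.

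After transfer, Tgfbi was the member called between unstimulated Th17 and Th1 cells at day 5. Its values were 9.01, 7.40 and 7.91 log2 units in Th17 cells, against 7.07, 7.10 and 7.27 in Th1 cells. All 3 Th17 values lay above all 3 Th1 values, and the first Th17 sample lay far above the other two. The means were 8.10 ± 0.82 in Th17 cells and 7.15 ± 0.11 log2 units in Th1 cells (SD, n = 3 each), a log2 difference of 0.95 (95% CI 0.44 to 1.46, 1.94-fold, limma adjusted p = 0.0279). This was 1 of 8 members called at an adjusted p under 0.05, where 3.63% of all genes were called. The groups did not overlap for 5 of 8 members in this comparison, and for 26% of all genes.

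The Tgfbi call was lost in several settings, among them the model limited to the compared groups (adjusted p = 0.128) and the trend and robust prior (0.0513). Without Th17 sample 1 the log2 difference was 0.50 (adjusted p = 0.207, limma), and without both parts of that sample it was 0.50 (adjusted p = 0.11). Leaving out any 1 of the Th1 arrays also ended the call (adjusted p = 0.114, 0.0964 and 0.0625 for Th1 replicates 1, 2 and 3). Th17 sample 1 also had the highest myeloid marker mean after transfer, 8.58 log2 units. With that mean as a covariate the log2 difference of Tgfbi was 0.10 (adjusted p = 0.979). The myeloid mean did not overlap between types here (7.46 to 8.58 log2 units in Th17, 6.66 to 6.94 in Th1). The fit extends a slope from the spread within groups over this gap, so it cannot separate type from these markers. Of the 17 myeloid markers, 4 were called higher in Th17 cells and 0 lower in this comparison.

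In the other Th17 against Th1 comparisons Tgfbi missed the threshold. Restimulated cells at day 5 had 7.78, 7.18 and 7.18 log2 units in Th17, against 6.91, 6.89 and 6.82 in Th1 (log2 difference 0.51, adjusted p = 0.425). Unstimulated cells at day 15 had a lowest value of 7.26 and a highest of 7.75 log2 units over 4 Th17 arrays, against 7.10 and 7.12 in Th1 (log2 difference 0.43, adjusted p = 0.482). Restimulated cells at day 15 ran from 6.84 to 7.38 log2 units in Th17, against 6.72 and 6.73 in Th1 (log2 difference 0.33, adjusted p = 0.616). In none of these did the Th17 and Th1 arrays overlap. Such groups were found for 2 of 8 members in restimulated cells at day 5 (18.1% of all genes), and at day 15 for 6 in unstimulated (23.7%) and 3 in restimulated cells (17.6%). Each of these Tgfbi differences was several times smaller than the 4.15 and 2.42 log2 units of day 0. With the myeloid mean as a covariate the log2 difference took the opposite sign in each of the 3, down to -0.15 in restimulated cells at day 5. The myeloid mean did not overlap between types in these comparisons either, so this fit cannot separate type from the markers. Since these are bulk samples, fewer cells of a type and less RNA per cell cannot be told apart.

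Across all 28 arrays the level of Tgfbi followed the myeloid marker mean, with a Pearson correlation of 0.913. Among the 14 Th17 arrays after transfer the correlation was 0.892, and among the 10 Th1 arrays 0.374. These are descriptions over arrays that share groups and sample parts. The 3 genes whose pattern over the 24 arrays after transfer was most like that of Tgfbi were Alox5ap, needed for leukotriene synthesis (r = 0.936), Sirpa, a receptor for CD47 on myeloid cells (r = 0.911), and Tyrobp, an adaptor of myeloid and natural killer receptors (r = 0.877).

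**Figure D2:**
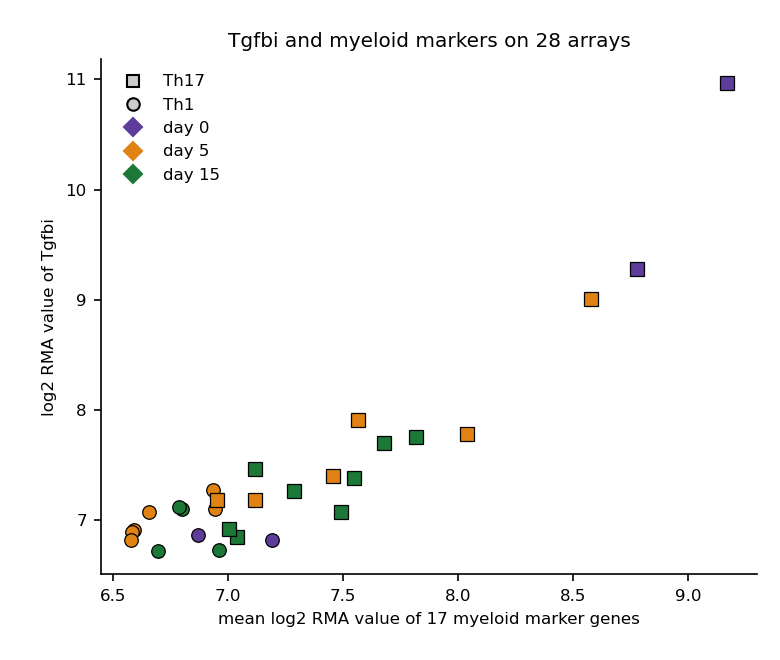
Level of Tgfbi (vertical axis, log2 RMA units) against the mean of 17 myeloid markers (horizontal axis, log2 RMA units) on all 28 arrays, squares for Th17 and circles for Th1, coloured by day. The unstimulated Th17 culture of day 0 lies at 9.17 and 10.97, and the unstimulated day 5 Th17 sample 1 at 8.58 and 9.01; the Th1 arrays stay between 6.72 and 7.27 for Tgfbi.

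Tgfbr2, the receptor that binds the ligand, was the member that passed the test in restimulated cells at day 5. Its values were 11.45, 11.22 and 11.45 log2 units in Th17 cells, against 11.08, 11.08 and 10.95 in Th1 cells. The groups did not overlap, and the log2 difference was 0.33 (95% CI 0.17 to 0.49, 1.26-fold, limma adjusted p = 0.0105). It was 1 of 8 members called, where 3.98% of all genes were. The call was lost without Th1 replicate 3 (log2 difference 0.29, adjusted p = 0.0924), without Th17 replicate 1 (0.30, 0.0731) or Th17 replicate 3 (0.30, 0.077), and with the model limited to the compared groups (adjusted p = 0.112).

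Tgfbr2 stood in the same order in the other 3 comparisons, with smaller differences that missed the threshold. In unstimulated cells at day 5 it had 11.32, 11.36 and 11.40 log2 units in Th17, against 11.15, 11.21 and 11.11 in Th1 (log2 difference 0.21, adjusted p = 0.187). At day 15 the unstimulated Th17 cells had 11.64, 11.68, 11.68 and 11.65 log2 units, against 11.41 and 11.50 in Th1 (log2 difference 0.21, adjusted p = 0.204). The restimulated day 15 values were 11.54, 11.48, 11.53 and 11.59 log2 units in Th17, against 11.41 and 11.35 in Th1 (log2 difference 0.15, adjusted p = 0.376). In all 4 comparisons the lowest Th17 array lay above the highest Th1 array. At day 0 the cultures were close, at 11.08 log2 units in Th17 and 11.09 in Th1 without restimulation.

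Tgfbr1, the kinase receptor that Tgfbr2 activates, was called in none of the 4. In unstimulated cells at day 15 it had 9.64, 9.62, 9.43 and 9.79 log2 units in Th17, against 9.94 and 10.13 in Th1, without overlap. The log2 difference of -0.41 had an adjusted p of 0.0518 in limma. In restimulated cells at day 5 the values were 9.51, 9.09 and 9.35 log2 units in Th17, against 9.11, 9.02 and 8.85 in Th1, which overlapped (log2 difference 0.32, adjusted p = 0.152). The call at day 15 was made in 5 of the alternative settings tried, among them cyclic loess (adjusted p = 0.0357) and a myeloid covariate (log2 difference -0.58, adjusted p = 0.00614). As above, the fit with that covariate cannot separate type from the myeloid markers.

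Smad3, the transducer that carries the receptor signal to the nucleus, was lower in Th17 than in Th1 cells at day 15. Unstimulated cells had 11.02, 10.98, 10.99 and 11.10 log2 units in Th17, against 11.42 and 11.62 in Th1. Restimulated cells had 11.30, 10.86, 10.99 and 11.03 log2 units in Th17, against 11.63 and 11.48 in Th1. Neither pair of groups overlapped. The log2 difference was -0.50 in unstimulated cells (95% CI -0.71 to -0.29, 1.41-fold, adjusted p = 0.00399) and -0.51 in restimulated cells (95% CI -0.72 to -0.30, 1.42-fold, adjusted p = 0.00277), both by limma. Each was the call of 1 of 8 members, where 4.15% of all genes were called among unstimulated and 6.43% among restimulated groups. With 2 Th1 arrays in each group, both calls could be lost by leaving 1 out: -0.40 with an adjusted p of 0.193 without unstimulated Th1 replicate 2, and -0.43 with 0.076 without restimulated Th1 replicate 1. The restimulated call was also lost with the model limited to the compared groups (adjusted p = 0.135).

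At day 5 Smad3 had 11.18, 11.18 and 11.13 log2 units in unstimulated Th17 cells, against 11.27, 11.38 and 11.41 in Th1 cells. The Th17 arrays again lay below all Th1 arrays, but the log2 difference of -0.19 missed the threshold (adjusted p = 0.434), and so did that in restimulated cells (-0.15, adjusted p = 0.657). The order at day 0 was the opposite without restimulation, 10.53 log2 units in Th17 and 10.09 in Th1, with 1 array each. Markers of natural killer cells also differed between the types at day 15, with a mean over 6 genes of 6.24 to 6.36 log2 units in unstimulated Th17 arrays and 7.19 to 7.65 in Th1 arrays. Their part in the Smad3 difference was not tested.

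Tgfb1 and the inhibitors Smad7, Ski and Skil were not called in any Th17 against Th1 comparison with all arrays. In restimulated cells at day 15 their differences depended on single arrays. Without Th1 replicate 2, which left 1 Th1 array, the log2 differences were -0.62 (Tgfb1), -0.57 (Smad7), -0.52 (Ski) and -0.82 (Skil). Without Th1 replicate 1 instead, they were -0.0138, 0.0773, -0.0497 and -0.0014 in the same order. Without restimulated Th17 replicate 1 of day 15, Tgfb1 was called (log2 difference -0.43, limma adjusted p = 0.0361). Smad7 in unstimulated cells at day 5 had 9.54, 9.55 and 9.81 log2 units in Th17, against 9.15, 9.23 and 9.17 in Th1. The groups did not overlap, and the log2 difference of 0.45 had an adjusted p of 0.0915, which was 0.0189 with the model limited to the compared groups. Unstimulated Smad7 at day 15 ran from 9.89 to 9.99 log2 units in Th17, against 9.59 and 9.61 in Th1, again without overlap (log2 difference 0.34, adjusted p = 0.279). Tgfb1 in unstimulated cells at day 5 had means of 11.91 ± 0.09 log2 units in Th17 and 11.91 ± 0.04 in Th1 (SD, n = 3 each, adjusted p = 0.998). At an unadjusted p under 0.05, 3 members passed in unstimulated cells (12.9% of all genes) and 2 in restimulated cells (11.8%) at day 5, and 4 (14.6%) and 3 (16.7%) at day 15.

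**Figure D3:**
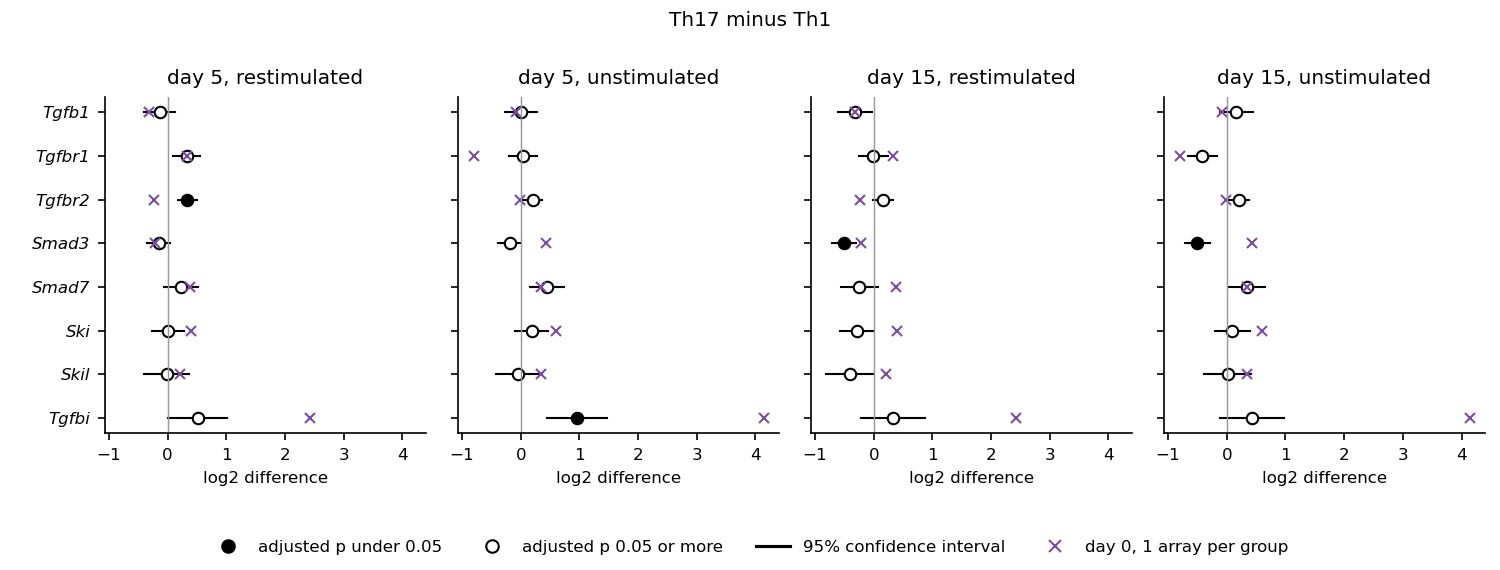
Th17 minus Th1 difference of each member in log2 units (horizontal axis) with its 95% confidence interval, in restimulated and unstimulated cells at day 5 and day 15. Filled points passed an adjusted p of 0.05 and purple crosses are the day 0 difference from 1 array per group; Tgfbi has its cross at 4.15 without restimulation and its points between 0.33 and 0.95.

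Restimulation through the T cell receptor moved the inhibitors. Skil, the co-repressor SnoN, rose in both types on both days after transfer. At day 5 it had 10.72, 10.29 and 10.93 log2 units in restimulated Th17 cells, against 8.33, 8.42 and 8.71 in unstimulated Th17 cells. Restimulated Th1 cells of day 5 had 10.80, 10.50 and 10.69 log2 units, against 8.45, 8.48 and 8.65 unstimulated. At day 15 the restimulated Th17 arrays ran from 10.28 to 10.96 log2 units, against 8.49 to 8.85 unstimulated, and the Th1 arrays had 11.41 and 10.59, against 8.68 and 8.72. No restimulated array overlapped an unstimulated one. The log2 differences were 2.16 in Th17 and 2.14 in Th1 cells at day 5 (4.48-fold and 4.4-fold, adjusted p = 7.21e-08 and 8.24e-08). At day 15 they were 1.87 in Th17 and 2.30 in Th1 cells (3.66-fold and 4.93-fold, adjusted p = 2.73e-08 and 1.34e-06), all by limma. In every alternative setting tried these 4 calls held, with adjusted p-values up to 0.023.

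Smad7, the inhibitor that acts at the receptor, rose too. Restimulated Th17 cells at day 5 had 10.41, 10.26 and 10.62 log2 units, against 9.54, 9.55 and 9.81 unstimulated. Restimulated Th1 cells at day 5 had 10.32, 10.26 and 10.02 log2 units, against 9.15, 9.23 and 9.17. At day 15 the Th17 values were 10.95, 11.00, 10.52 and 10.62 log2 units restimulated, against 9.93, 9.99, 9.97 and 9.89 unstimulated, and the Th1 values were 11.34 and 10.70, against 9.59 and 9.61. All groups were apart. The log2 differences were 0.80 in Th17 (95% CI 0.50 to 1.09, 1.74-fold, adjusted p = 0.00121) and 1.02 in Th1 (2.02-fold, adjusted p = 6.15e-05) at day 5. At day 15 they were 0.83 in Th17 (1.78-fold, adjusted p = 4.44e-05) and 1.42 in Th1 (2.67-fold, adjusted p = 2.97e-05). The 2 day 15 calls were lost in 1 setting each: in Th17 with an erythroid covariate (log2 difference 0.79, adjusted p = 0.0672), and in Th1 with the model limited to the compared groups (adjusted p = 0.0801). The erythroid mean did not overlap between restimulated and unstimulated Th17 arrays at day 15 (7.87 to 8.18 against 8.685 to 9.55 log2 units). The fit with it thus cannot separate restimulation from these markers.

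Ski, a relative of Skil with the same partners, rose in Th1 cells and missed the threshold in Th17 cells. At day 5 it had 11.33, 11.07 and 10.97 log2 units in restimulated Th1 cells, against 10.51, 10.68 and 10.55 unstimulated (log2 difference 0.55, 1.46-fold, adjusted p = 0.00794). At day 15 it had 11.65 and 11.18 log2 units in restimulated Th1 cells, against 10.77 and 10.94 (log2 difference 0.56, 1.48-fold, adjusted p = 0.038). In Th17 cells the log2 difference was 0.37 at day 5 (adjusted p = 0.0932) and 0.18 at day 15 (adjusted p = 0.29). The difference between the types was not called for Ski in either interaction. Leaving out restimulated Th1 replicate 1 ended the call at day 5 (log2 difference 0.44, adjusted p = 0.0624).

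Tgfbr1 moved the other way in Th1 cells. At day 5 it had 9.11, 9.02 and 8.85 log2 units in restimulated Th1 cells, against 9.41, 9.35 and 9.52 unstimulated (log2 difference -0.43, 1.35-fold, adjusted p = 0.0128). At day 15 it had 9.48 and 9.49 log2 units in restimulated Th1 cells, against 9.94 and 10.13 (log2 difference -0.55, 1.47-fold, adjusted p = 0.0181). Neither pair of groups overlapped. The day 5 call was lost without replicate 3 of either condition (log2 difference -0.36 with adjusted p = 0.0878 for the restimulated array, -0.39 with 0.0727 for the unstimulated one).

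Tgfb1, the ligand, was called on restimulation of Th1 cells at day 15. It had 12.55 and 11.95 log2 units in restimulated cells, against 11.70 and 11.55 in unstimulated ones, without overlap (log2 difference 0.63, 1.54-fold, adjusted p = 0.0195). In Th1 cells at day 5 it had 12.19, 12.18 and 12.34 log2 units, against 11.86, 11.91 and 11.95, and missed the threshold (log2 difference 0.33, adjusted p = 0.102). The day 15 calls of Tgfb1, Tgfbr1 and Ski in Th1 cells stood on 2 arrays a group. Each was lost without unstimulated replicate 1 (adjusted p = 0.0707, 0.0547 and 0.247), without unstimulated replicate 2 (0.155, 0.169 and 0.099) and without restimulated replicate 1 (0.322, 0.08 and 0.385).

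In all, restimulation changed 2 of 8 members in Th17 cells at day 5, where 8.07% of all genes were called, and 2 of 8 at day 15, where 17.5% were. In Th1 cells it changed 4 of 8 at day 5, where 13% of all genes were called, and 5 of 8 at day 15, where 7.29% were. Smad3 and Tgfbr2 were called in 0 of the 4 restimulation comparisons. Members whose groups did not overlap numbered 3 in Th17 cells at day 5 (27.7% of all genes) and 3 at day 15 (18%). In Th1 cells they numbered 7 at day 5 (38.6%) and 6 at day 15 (41%). The single member called lower, Tgfbr1 in Th1 cells, stands beside 8.96% of all genes called lower at day 5 and 4.63% at day 15, and in Th17 cells 0 members were called lower, beside 4.08% and 11.1%. Tgfbi in Th17 cells at day 5 had 7.78, 7.18 and 7.18 log2 units restimulated, against 9.01, 7.40 and 7.91 unstimulated, which overlapped (log2 difference -0.72, adjusted p = 0.0737). Same-numbered arrays deviated together in this comparison, and with the replicate number as a block Tgfbi was called lower (adjusted p = 0.00546), which made 3 members. The myeloid marker mean was 8.04, 6.95 and 7.12 log2 units in the restimulated arrays, against 8.58, 7.46 and 7.56, and its part was not tested.

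**Figure D4:**
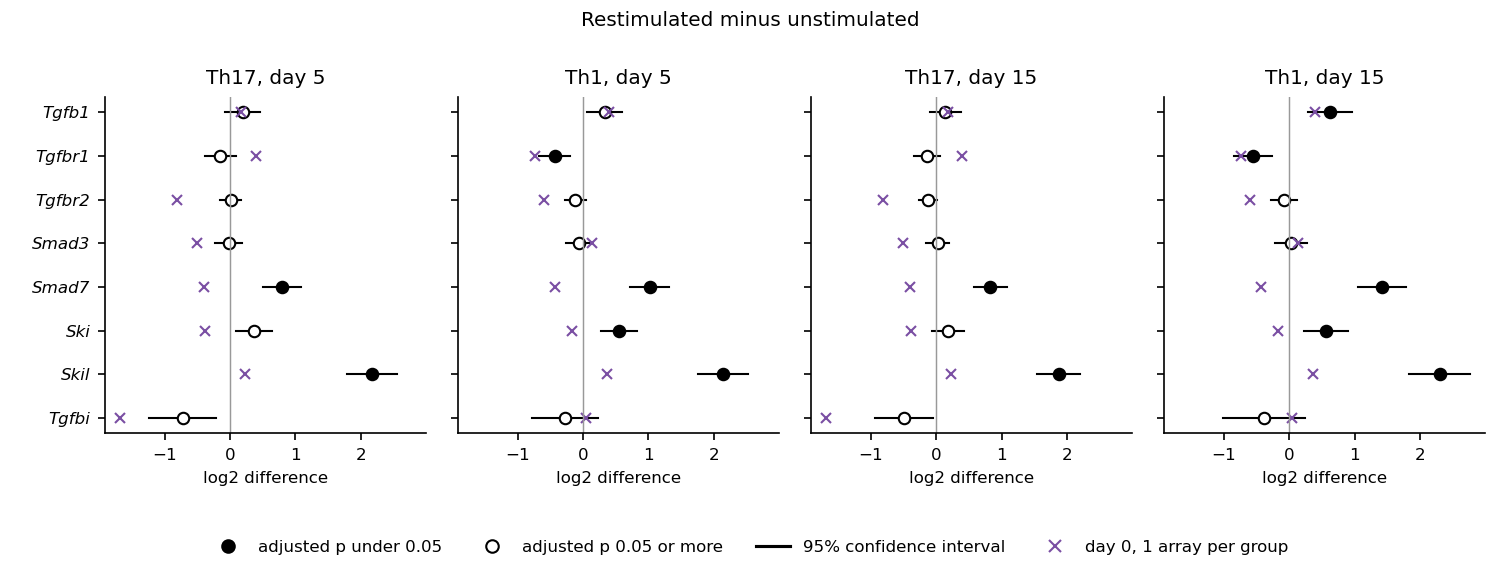
Restimulated minus unstimulated difference of each member in log2 units (horizontal axis) with its 95% confidence interval, for Th17 and Th1 cells at day 5 and day 15; filled points passed an adjusted p of 0.05 and purple crosses are day 0. Skil lies between 1.87 and 2.30 after transfer and Smad7 between 0.80 and 1.42, while the day 0 crosses of Skil lie at 0.24 and 0.37 and those of Smad7 below 0.

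Day 0 differed from this in its values, with 1 array per group and no test. Skil had 10.02 log2 units in the restimulated Th17 culture against 9.79 in the unstimulated one, and 9.81 against 9.44 in the Th1 culture. Its unstimulated levels thus lay above every unstimulated value after transfer (8.33 to 8.85 log2 units). Smad7 had 9.60 log2 units restimulated against 9.99 unstimulated in Th17, and 9.22 against 9.65 in Th1, so both differences were negative. Tgfbr2 had 10.27 log2 units restimulated against 11.08 unstimulated in Th17, and 10.49 against 11.09 in Th1, and these restimulated values were its lowest on the 28 arrays. At day 0, 0 of 8 members were at least 2-fold higher on restimulation of Th17 cells, where 1.8% of all genes were, and 1 was at least 2-fold lower (Tgfbi, log2 difference -1.69), where 0.757% were. In Th1 cells 0 were higher, where 3.69% of all genes were, and 0 lower, where 5.72% were.

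Between day 5 and day 15, Tgfbr2 rose in 3 of the 4 comparisons, Tgfbr1 in Th1 cells, and Smad7 in restimulated Th1 cells. Tgfbr2 in unstimulated Th17 cells had 11.64, 11.68, 11.68 and 11.65 log2 units at day 15, against 11.32, 11.36 and 11.40 at day 5, without overlap (log2 difference 0.30, 1.23-fold, adjusted p = 0.00884). In unstimulated Th1 cells it had 11.41 and 11.50 log2 units at day 15, against 11.15, 11.21 and 11.11 at day 5 (log2 difference 0.30, 1.23-fold, adjusted p = 0.0167). In restimulated Th1 cells it had 11.41 and 11.35, against 11.08, 11.08 and 10.95 log2 units (log2 difference 0.34, 1.27-fold, adjusted p = 0.00707). The day 15 arrays lay above all day 5 arrays in these 3 comparisons.

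Tgfbr1 missed the threshold with day in Th17 cells (adjusted p = 0.372 unstimulated and 0.367 restimulated) and passed it in Th1 cells. Unstimulated Th1 cells had 9.94 and 10.13 log2 units at day 15, against 9.41, 9.35 and 9.52 at day 5 (log2 difference 0.61, 1.52-fold, adjusted p = 0.0014). Restimulated Th1 cells had 9.48 and 9.49 log2 units at day 15, against 9.11, 9.02 and 8.85 at day 5 (log2 difference 0.49, 1.4-fold, adjusted p = 0.00891). Smad7 in restimulated Th1 cells had 11.34 and 10.70 log2 units at day 15, against 10.32, 10.26 and 10.02 at day 5 (log2 difference 0.82, 1.76-fold, adjusted p = 0.000759). None of these groups overlapped. The unstimulated Tgfbr1 call was lost without day 15 replicate 2 (adjusted p = 0.0504), and the restimulated one without day 5 replicate 3 (0.0536) or day 15 replicate 2 (0.0586).

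These made 1 of 8 members called in unstimulated Th17 cells (9.64% of all genes called), 2 in unstimulated Th1 cells (16.1%) and 3 in restimulated Th1 cells (15.7%). In restimulated Th17 cells limma called 0 members (13.5% of all genes), with 2 at an unadjusted p under 0.05 (26% of all genes). These were Tgfbr2 (log2 difference 0.16, adjusted p = 0.154) and Smad7 (0.34, adjusted p = 0.094). Tgfbi in unstimulated Th17 cells was lower at day 15, with overlap, and missed the threshold (log2 difference -0.56, limma adjusted p = 0.128). In Th17 cells 0 members were called lower, beside 5.28% of all genes unstimulated and 8.42% restimulated, and likewise 0 in Th1 cells, beside 8.72% and 8.64%. Groups that did not overlap were found for 3 of 8 members in unstimulated Th17 cells (23.2% of all genes) and 1 in restimulated ones (19.5%), and for 7 in unstimulated (49.9%) and 5 in restimulated Th1 cells (36.2%). All 6 erythroid markers were called higher at day 15 in each of the 4 comparisons. With their mean as a covariate no day call of a member was left. That mean did not overlap between days (6.29 to 6.68 log2 units at day 5, 7.87 to 9.64 at day 15). The fit extends a slope from the spread within groups over this gap, so it cannot separate day from these markers. The log2 difference of Tgfbr2 was then 0.39 in unstimulated Th17, 0.41 in unstimulated Th1 and 0.43 in restimulated Th1 cells. That of Tgfbr1 was 0.14 in unstimulated and 0.10 in restimulated Th1 cells. The Tgfbr2 call in unstimulated Th1 cells was also lost without day 15 replicate 2 (log2 difference 0.25, adjusted p = 0.193), and that of unstimulated Th17 cells without day 5 replicate 1 (0.28, 0.051).

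Whether the effects differed between types was tested by interactions, and limma called 0 of the 8 members in each. The share of all genes called was 1.14% for type with day in unstimulated cells (0.577% higher, 0.562% lower) and 0.943% in restimulated cells (0.431% higher, 0.512% lower), and 0.0201% for type with restimulation at day 5 and 0% at day 15. At an unadjusted p under 0.05 these had 2, 2, 0 and 3 members, beside 12.6%, 10.7%, 2.46% and 6.1% of all genes. A difference between Th17 and Th1 cells in the Smad3 change with day had an adjusted p of 0.352 in unstimulated and 0.308 in restimulated cells. The smaller restimulation response of Smad7 in Th17 cells at day 15, a log2 difference of -0.59, had an adjusted p of 0.747. Leaving out replicate 2 of restimulated day 15 Th1 cells left 1 array in that group. For type with restimulation at day 15 the log2 differences were then -0.91 for Smad7 and -0.78 for Tgfb1. For type with day in restimulated cells that of Smad7 was -0.80. Without replicate 1 instead, they were -0.26, -0.18 and -0.15 in the same order.

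The wider pathway was followed over 6 lists with 95 measured genes, which include the members. In unstimulated cells at day 5, 8 of the 95 were called higher in Th17 than in Th1 cells, where 2.31% of all genes were, and 4 lower, where 1.32% were. Restimulated cells at day 5 had 8 higher (2.95% of all genes) and 5 lower (1.02%). At day 15, unstimulated cells had 5 higher (1.88%) and 11 lower (2.28%), and restimulated cells 10 higher (3.45%) and 17 lower (2.98%). The median log2 difference of the 95 genes was -0.02, 0.02, 0.00 and -0.13 in these comparisons, against -0.04, 0.00, 0.02 and -0.03 over all genes. The counts moved with the setting. Unstimulated cells at day 5 had 3 (myeloid covariate) to 13 higher (model limited to the compared groups), 5 higher without Th1 replicate 1 or 2, and 2 lower without Th17 replicate 1 or 3 or Th1 replicate 2 or 3. Restimulated cells at day 5 had 4 higher without Th17 replicate 3, 12 without Th17 replicate 2 and 5 without Th1 replicate 3, and 3 lower without Th17 replicate 1 or Th1 replicate 3. Unstimulated cells at day 15 had 3 higher and 5 lower without Th1 replicate 2, and 7 lower without Th17 replicate 2. Restimulated cells at day 15 had 5 higher and 9 lower without Th1 replicate 1, and 2 and 9 with the model limited to the compared groups.

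By role, the counts of called genes differed between the lists. Over all genes, 1.88% to 3.45% were called higher and 1.02% to 2.98% lower in the 4 comparisons. The 12 receptors had 2 or 3 called higher in Th17 cells in each comparison, and 1 called lower, at day 15 after restimulation. The 19 feedback genes had 2 to 4 called higher and 0 lower. Their median log2 difference was -0.04 and 0.06 in unstimulated and restimulated cells at day 5, and 0.10 and -0.08 at day 15. The 18 ligand and activation genes had 0 called higher in any, 0 lower at day 5, and 2 and 4 lower in unstimulated and restimulated cells at day 15. The 12 Smads and partners had at most 1 called higher and at most 2 lower.

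The 18 TGF-beta induced genes had 2 called higher and 0 lower in unstimulated cells at day 5, and 1 and 1 in restimulated cells. At day 15 they had 0 higher and 1 lower in unstimulated cells, and 2 higher and 6 lower in restimulated cells. Their median log2 difference was 0.01 in both conditions at day 5 and -0.25 in both at day 15. Among the 16 genes that TGF-beta signalling represses in T cells, 4 to 6 were called lower in Th17 cells and at most 1 higher. Their median log2 difference was -0.14 in unstimulated and -0.28 in restimulated cells at day 5, and -0.57 and -0.81 at day 15. Other markers were also lower in Th17 cells at day 15. Of 6 natural killer markers, 4 were called lower in unstimulated (median log2 difference -1.01) and 1 in restimulated cells (-0.51), and of 8 regulatory T cell markers, 2 in unstimulated (-0.58) and 5 in restimulated cells (-0.67). Their part in these counts was not tested. The repressed list also holds genes of the Th1 program, among them Tbx21 and Ifng. The cultures differed in IL-12, IL-6 and an antibody to IFN-gamma as well as in TGF-beta 2. In these counts and those of day 0, the part of TGF-beta cannot be told apart from the rest of the polarization.

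Acvr1b, the activin receptor kinase that signals through the same Smads as Tgfbr1, was called higher in Th17 cells in all 4 comparisons. It had 7.84, 7.42 and 7.71 log2 units in unstimulated Th17 cells at day 5, against 6.82, 6.84 and 6.85 in Th1 cells. At day 15 it had 8.20, 8.11, 8.07 and 8.13 log2 units in Th17 cells, against 7.38 and 7.39 in Th1 cells. The log2 differences were 0.82 and 0.77 in unstimulated and restimulated cells at day 5 (adjusted p = 1.11e-05 and 2.68e-05), and 0.74 and 0.78 at day 15 (adjusted p = 0.000103 and 5.17e-05). The groups did not overlap, and the call held in every alternative setting tried. At day 0 the Th17 culture had 8.74 log2 units and the Th1 culture 8.11 without restimulation.

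Tgfbr3 (betaglycan), a co-receptor that presents TGF-beta to Tgfbr2, was called higher in Th17 cells in 3 of the 4. It had 8.90, 8.87 and 9.30 log2 units in unstimulated Th17 cells at day 5, against 7.98, 7.86 and 7.70 in Th1 cells (log2 difference 1.18, adjusted p = 5.1e-05). At day 15 the unstimulated values were 9.51, 9.64, 9.36 and 9.59 log2 units in Th17, against 8.42 and 8.32 in Th1 (log2 difference 1.15, adjusted p = 0.00017). The day 0 cultures had the opposite order, 9.47 log2 units in Th17 and 9.97 in Th1. The day 5 restimulated call (log2 difference 0.75, adjusted p = 0.00666) was lost without replicate 3 of either type.

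Genes of the 95 called the same way in at least 3 of the 4 Th17 against Th1 comparisons were counted next, a rule set after the values were seen. The lists were also chosen with earlier results of these data known, so the shares are descriptions. Higher in Th17 cells were Tgfbr3, Acvr1b, Smad1, Ldlrad4, Nedd4l, Wwp1, Tsc22d1 and Id3, 8 of 95 (8.42%), against 1.14% of all genes. Lower were Gzma, Klrg1, Cx3cr1 and Cdkn2b, 4 of 95 (4.21%), against 0.727% of all genes. Ldlrad4, which holds Smad2 and Smad3 away from the receptor, had log2 differences of 1.17 (adjusted p = 0.00191) in unstimulated and 1.27 (adjusted p = 0.000754) in restimulated cells at day 5. The first of these calls was lost with a myeloid covariate, a fit that cannot separate type from the myeloid markers. Klrg1, a receptor of terminal effector cells, had log2 differences of -3.21 and -3.00 at day 5 and -2.55 and -2.27 at day 15. Gzma, which encodes a granule protease of cytotoxic cells, had -1.15 and -1.07 at day 5 and -2.38 and -2.17 at day 15. At day 5, 2 of 6 natural killer markers passed the test with more signal in Th17 cells, and 0 with less, in each condition. At day 15, 0 passed with more signal, and 4 in unstimulated and 1 in restimulated cells passed with less. Their part in the Gzma difference was not tested.

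The TGF-beta induced genes were also compared at day 0. Of 18 measured, 6 were at least 2-fold higher in the unstimulated Th17 culture (2.73% of all genes) and 0 lower (1.81%), with a median log2 difference of 0.37. In the restimulated cultures 3 were higher (3.32% of all genes) and 1 lower (1.13%), with a median of 0.08. Besides Tgfbi, the 6 without restimulation were Timp1, an inhibitor of matrix proteases (39.9-fold), Itgae, the alpha chain of CD103 (log2 difference 1.81), Dusp4, Vegfa and Ahr. Of the 16 repressed genes, 6 were at least 2-fold lower and 3 higher without restimulation, and 6 lower and 0 higher with it. Without restimulation the lower ones included Tbx21, which encodes the Th1 regulator T-bet (log2 difference -4.53), and Ifng (-2.35), and the higher ones were Il2, Id3 and Cx3cr1.

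On restimulation, 17 of the 95 pathway genes were called higher in Th17 cells at day 5 (3.99% of all genes) and 3 lower (4.08%), and 18 higher (6.49%) and 6 lower (11.1%) at day 15. In Th1 cells 23 were called higher (4.07%) and 8 lower (8.96%) at day 5, and 18 higher (2.65%) and 2 lower (4.63%) at day 15. With the erythroid covariate the higher count at day 15 was 7 in Th17 and 10 in Th1 cells. The erythroid mean did not overlap between conditions there in either type, so this fit cannot separate restimulation from these markers. The Th1 count of day 15 was 9 higher without replicate 1 of either condition, 11 without unstimulated replicate 2 and 6 with the model limited to the compared groups. At day 5 the lower counts moved most, in Th17 cells between 1 and 7 and in Th1 cells between 4 and 14 over the settings tried. Called higher in all 4 were 11 of 95 (11.6%), against 1.14% of all genes: Smad7 and Skil among the members, and Tgif1, Tgif2, Pmepa1, Ccr8, Rgs16, Dusp4, Gadd45b, Ifng and Il2. These shares are descriptions, since the lists were chosen with earlier results known. Tgif1, a nuclear co-repressor of the Smads, had 11.53, 11.41 and 11.62 log2 units in restimulated Th17 cells at day 5, against 9.20, 8.91 and 9.29 unstimulated. Its log2 differences were 2.38 and 2.34 in Th17 cells at day 5 and day 15, and 2.28 and 2.44 in Th1 cells, with adjusted p-values up to 7.92e-10, and they held in every setting tried. Unlike Skil, Tgif1 also had differences above 1 log2 unit at day 0 (1.12 in Th17 and 1.49 in Th1). Pmepa1, a membrane protein that competes for Smad2 and Smad3, had log2 differences of 2.70 and 1.89 in Th17 cells and 3.56 and 3.17 in Th1 cells at day 5 and day 15, while at day 0 the restimulated cultures had 11.96 log2 units in Th17 and 11.84 in Th1, against 11.76 and 11.15.

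**Figure D5:**
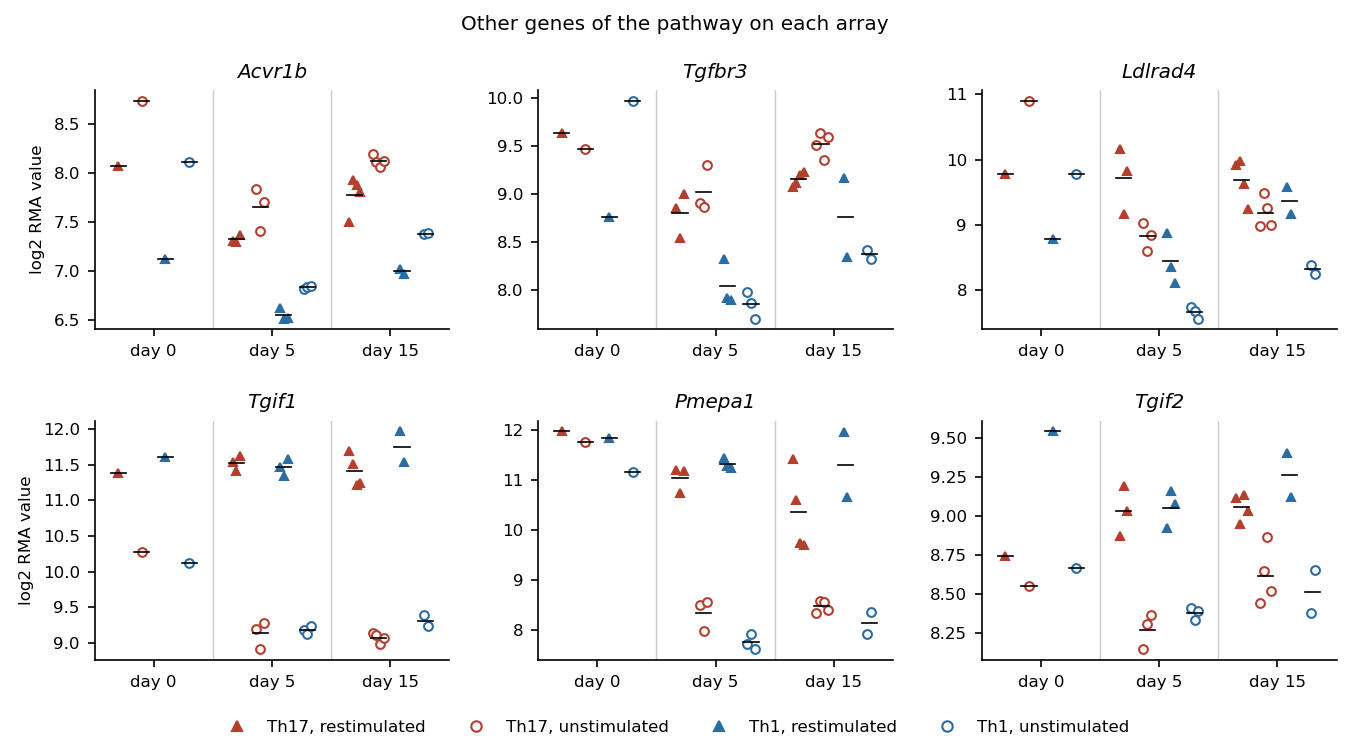
Level of 6 further pathway genes on every array (vertical axis, log2 RMA units) by day, with Th17 left of Th1 and restimulated (filled triangles) left of unstimulated (open circles); black lines are group means. Acvr1b lies higher in Th17 than in Th1 arrays at day 5 and day 15, at 7.42 to 7.84 against 6.82 to 6.85 in unstimulated cells of day 5, and Tgif1 lies between 11.22 and 11.97 in all restimulated arrays after transfer.

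Receptor genes also rose with day beyond Tgfbr1 and Tgfbr2. Of the 12 receptors, 4 were called higher at day 15 than at day 5 in unstimulated and 1 in restimulated Th17 cells, 5 in unstimulated and 5 in restimulated Th1 cells, and 0 lower in any of the 4. The shares of all genes called higher were 4.37%, 5.05%, 7.33% and 7.07% in the same order. Acvr1b had log2 differences of 0.47 and 0.45 in Th17 cells and 0.55 and 0.45 in Th1 cells, unstimulated and restimulated. Eng (endoglin), a co-receptor also found on erythroid precursors, had log2 differences of 1.84 (adjusted p = 7.42e-09) in unstimulated Th17 and 1.72 (adjusted p = 3.43e-07) in unstimulated Th1 cells. With erythroid marker means as covariate the log2 difference of Eng was 0.01 in unstimulated Th17 and -0.56 in unstimulated Th1 cells, and that of Acvr1b -0.05 and -0.10. As above, this fit cannot separate day from the erythroid markers.

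The members also varied together from array to array. Over the 24 arrays after transfer, Smad7 and Ski had a Pearson correlation of 0.896, Smad7 and Skil 0.877 and Ski and Skil 0.828. After each group's mean was taken out these were 0.823, 0.789 and 0.869. Tgfb1 and Tgfbr1 ran opposite to each other (r = -0.641). The genes most like Skil among 9961 candidates were Tgif1 (r = 0.988), Nr4a3 (0.985), an early gene of receptor signalling, and Kdm6b (0.982). Smad7 was followed most closely by Rgcc (0.961), Jmjd1c (0.96) and Arid5a (0.947), and Ski by Jmjd1c (0.925), Ralgds (0.91) and Pde4d (0.906). For Tgfb1 they were Got1 (0.93), Mapkapk2 (0.93) and Cd40lg (0.919), and for Tgfbr1 Slc17a5 (0.93), Pcmtd2 (0.927) and Arfgef2 (0.919). For Tgfbr2 they were Atxn2 (0.945), Adgrg3 (0.928) and Mical3 (0.928), and for Smad3 Fbxw7 (0.881), Gzma (0.867) and Slc16a6 (0.863). The arrays share groups and sample parts, so these correlations are descriptions.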

How the data were processed

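The authors deposited log2 RMA values of 28 arrays, made in Affymetrix Expression Console per the submitters' processing notes. Neither software versions nor a genome build is named in these sources, and no further normalization was applied for the report. RMA sets all arrays to like distributions and gives no count or depth, so precision rests on the number of arrays. Of 35556 probe sets, 21789 had 1 symbol. The probe set with the highest mean was kept for each of 19938 genes.

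To the 24 arrays after transfer, a model with 1 coefficient for each of 8 groups was fitted with limma 3.58.1 (lmFit, eBayes) in R 4.3.3, after a test on simulated data. P-values were adjusted by Benjamini-Hochberg over all genes and called under 0.05. The 12 pairs and 4 interactions share groups. The 4 arrays of day 0 have no replicates and no test. All 8 members were tested in every comparison, and the text names each one called and some that missed the threshold. Of the wider lists up to 4 called genes each way were named by size of change, with a few chosen after their values were seen. The closest genes are the 3 with the highest Pearson correlation. Members and lists were chosen with earlier results of these data known.

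The alternatives were only the compared groups in the model, genes above the median, cyclic loess, centring, the mean of a gene's probe sets, a trend and robust prior, the replicate number as a block, and leaving out each array. Myeloid and erythroid covariates and the removal of both parts of day 5 Th17 sample 1 were added after seeing the data. The myeloid mean did not overlap between types in any Th17 against Th1 comparison. The erythroid mean did not overlap between types in unstimulated cells at day 5 or restimulated cells at day 15. Nor did it overlap between days, or between restimulated and unstimulated arrays of a type at day 15. In these comparisons the covariate fits cannot separate the compared groups from the markers.

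Same-numbered arrays deviated together over 9969 genes in 3 comparisons at day 5: restimulation of Th17 cells (correlations 0.384 to 0.474), restimulation of Th1 cells (0.158 to 0.215) and restimulated Th17 against Th1 cells (0.217 to 0.483). There the numbers were read as pairs only in the alternative with the replicate block, and the main tests used no block. Same-numbered Th1 arrays also deviated together between day 15 and day 5 (correlations 0.285 and 0.206 unstimulated, 0.382 and 0.644 restimulated). Upstream sequences and gene starts are from RefSeq on GRCm38.p6, and the upstream sequences at hand covered 6 of the 8 members.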

Additional observations from a re-analysis of the deposited data

Results flagged for a closer look

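In the 4 restimulated Th17 arrays of day 15, Tgfb1 had 12.28 log2 units in replicate 1, against 11.86, 11.80 and 11.80 in the others, a gap of 0.878 of the whole range. In the same group Tgfbr1 had 9.59 log2 units in replicate 3, against 9.45, 9.43 and 9.45, a gap of 0.891 of the range. Both gaps pass Dixon's 95% limit for 4 samples. Of 16 gene and group combinations of this size, chance alone would pick out about 1.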

How the results depend on the processing

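No member reversed a called difference in any alternative, and all restimulation calls of Skil were kept. Among unstimulated cells at day 5, 0 members were called between Th17 and Th1 with the trend and robust prior, with the myeloid or the erythroid covariate, and without both parts of Th17 sample 1. Among restimulated cells at day 5, 0 were called with the model limited to the compared groups, with the myeloid covariate and without both parts of that sample. At day 15, 2 members were called in unstimulated cells (Smad3 and Tgfbr1) among genes above the median, with cyclic loess, with the trend and robust prior and with the myeloid covariate. In restimulated cells 0 were called with only the compared groups or with the erythroid covariate. For restimulation at day 15, the erythroid covariate left 1 member in Th17 and 2 in Th1 cells, and only the compared groups left 1 in Th1 cells, where 42 of all genes were called against 1453. Between day 15 and day 5, the erythroid covariate left 0 in unstimulated Th17, unstimulated Th1 and restimulated Th1 cells. The count was 0 in unstimulated Th17 cells without both parts of sample 1, and 2 in restimulated Th17 cells with cyclic loess. In unstimulated Th1 cells it was 4 with only the compared groups, 1 with centring and 1 with the replicate number as a block, and in restimulated Th1 cells 1 with only the compared groups. The causes were not tested, and where a marker mean did not overlap between the compared groups, its covariate cannot separate them from the markers.

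With 1 array left out, between 0 and 1 members were called between Th17 and Th1 in unstimulated and 0 to 2 in restimulated cells at day 5, and 0 to 2 and 0 to 5 at day 15. For restimulation the counts were 2 to 3 and 2 to 2 in Th17 cells at day 5 and day 15, and 3 to 4 and 2 to 5 in Th1 cells. For day they were 0 to 2 and 0 to 1 in unstimulated and restimulated Th17 cells, and 0 to 2 and 2 to 3 in Th1 cells. For interactions they were 0 to 1 for type with day in restimulated cells, 0 to 2 for type with restimulation at day 15, and 0 in the other two. Where 1 array was left in a group, its spread was taken to equal that of other groups.

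In the 3 comparisons at day 5 where same-numbered arrays deviated together, the replicate block changed no other member's call than Tgfbi. For restimulation at day 15 the samples were divided, but a shared number is not stated to mark both parts, and the block kept 2 members called in Th17 and 5 in Th1 cells. With day in Th1 cells same-numbered arrays also deviated together (correlations 0.285 and 0.206 unstimulated, 0.382 and 0.644 restimulated). There the block left Tgfbr2 uncalled in unstimulated cells (0.28, limma adjusted p = 0.0715) and Tgfbr1 in restimulated cells (0.42, limma adjusted p = 0.0528). In the remaining comparisons the numbers were not shown to pair the arrays. All reversals were of other pathway genes between day 15 and day 5 under the erythroid covariate, which cannot separate day from the erythroid markers. In unstimulated Th17 cells these were Tgfbr3 (-0.68), Acvr1b (-0.051) and Foxp3 (0.73), and in restimulated Th17 cells Foxp3 (0.35). In unstimulated Th1 cells they were Eng (-0.56), Acvr2a (-0.0019) and Acvr1b (-0.10), and in restimulated Th1 cells Eng (-0.996), Tgfbr3 (-0.50), Acvr1b (-0.093) and Rnf111 (-0.043). At day 0, centring gave -0.10 log2 units for Tgfbr2 between unstimulated Th17 and Th1 cultures.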

Other observations

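Other pathway genes changed with restimulation at 1 day or in 1 type. Tgfb3, a further TGF-beta ligand, was called lower at day 5, with log2 differences of -0.96 in Th17 cells (limma adjusted p = 0.0186) and -1.14 in Th1 cells (adjusted p = 0.00352). Inhba, which encodes the activin A subunit, was called higher at day 5, with log2 differences of 1.33 in Th17 cells (adjusted p = 0.0291) and 1.52 in Th1 cells (adjusted p = 0.00822). Itgae, the alpha chain of CD103, was called higher in Th1 cells at day 15 than at day 5, with log2 differences of 1.34 unstimulated (adjusted p = 0.00151) and 1.56 restimulated (adjusted p = 0.000358). The 2 Th1 arrays of day 15 lay apart, at 7.72 and 8.53 log2 units unstimulated and 7.60 and 8.88 restimulated. Between Th17 and Th1 cells at day 15 Itgae missed the threshold (log2 difference -0.68 unstimulated and -0.76 restimulated, limma adjusted p = 0.198 and 0.107). For the difference between types in the change with day, 0 of the 95 pathway genes were called higher (0.577% of all genes) and 3 lower (0.562%) in unstimulated cells (Foxp3, Gzmb and Gzma). In restimulated cells 0 were called higher (0.431%) and 5 lower (0.512%), namely Lrrc32, Itgb8, Foxp3, Gzmb and Gzma.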
